A study of Mus musculus with 35 samples.

Results

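The amino acid transporter genes of 6 solute carrier families were followed through a TGF-β experiment in mouse mammary epithelial cells. Members were the rows of the expression table whose symbols begin with Slc1a, Slc6a, Slc7a, Slc36a, Slc38a or Slc43a and end in a number. Slc7a5 and Slc7a11 matched this pattern and were left out, so 55 of the 20261 genes in the table were members. Of these, 38 had a mean of at least 10 normalized reads in at least 1 of the 10 groups and were tested. They were 6 of 7 Slc1 genes, 10 of 17 Slc6 genes, 9 of 13 Slc7 genes, 2 of 4 Slc36 genes, 8 of 11 Slc38 genes and 3 of 3 Slc43 genes. The other 17 stayed at or below 11.1 normalized reads in each library.

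Amino acids do not cross membranes unaided, and each of these families carries its own range of substrates. Slc1 proteins take up acidic amino acids (the glutamate transporters) or exchange small neutral ones (ASCT1 and ASCT2). Slc6 proteins use sodium and chloride to carry glycine, taurine, betaine, creatine and other small solutes. The Slc7 family holds the arginine and lysine carriers and the light chains that pair with the heavy chain Slc3a2. The Slc36 family includes the proton-coupled amino acid carrier Slc36a1. Several Slc38 proteins carry glutamine with sodium, and Slc43a1 and Slc43a2 carry large neutral amino acids. Slc38a9 and Slc36a1 also sit in the lysosomal membrane, where the kinase complex mTORC1 senses amino acids.

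The cells were NMuMG, a line of mouse mammary epithelium that goes through an epithelial-mesenchymal transition in TGF-β. All 20 libraries used here carry the same labels for genotype (WT) and for strain (E9), and they come from total RNA. They form 10 groups of 2 libraries: DMSO, the solvent control, and JNKi, an inhibitor of JNK kinases whose compound is not named, each at 24, 48, 72 and 96 h and at 7 d. The labels' protocol gives TGF-β at 2 ng/ml, renewed with the medium every 2 days. It does not say how long before harvest the medium was last changed. No group without TGF-β stands beside these times, so time in TGF-β and time in culture cannot be told apart. Whether replicates were grown separately is not stated in the labels. The p-values here therefore measure the spread among these libraries alone, which may be technical.

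Each library held 9492324 to 48584027 recovered reads, and the shallowest was JNKi at 7 d, replicate 1. On the scale of CPM (counts-per-million of recovered reads), the sum of 8 epithelial markers went from 10687.53 and 10850.03 in DMSO at 24 h to 4544.84 and 5838.9 at 7 d. Epcam, one of them, was listed at 0 in both DMSO libraries at 24 h. Summed fibroblast markers (7 genes) went from 22.02 and 19.6 to 60.35 and 55.68 CPM. Leukocyte markers (6 genes) went from 20.71 and 18.8 to 41.68 and 36.82, endothelial markers (4 genes) from 3.0 and 1.95 to 12.43 and 10.82, and adipocyte markers (3 genes in the table) stayed at or below 0.77 in both arms at 24 h and 7 d. In bulk RNA, fewer cells of a type and less RNA per cell cannot be told apart, and the part of these markers in the changes below was not tested.

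Promoter sequences of 3 members are shown because these genes rose at 96 h and had lower levels under JNKi at 7 d. Each runs 5′ to 3′ on the gene's strand over the last 146 bases before the RefSeq start site and the first 4 after it, in build GRCm38.p6. Capitals mark the motif found: in Slc1a4 the core of the C/EBP-ATF element, TGATGNAA, which reads TTGCATCA because it lies on the other strand, and in Slc7a1 and Slc38a7 the AP-1 site, TGANTCA.
Slc1a4, chr11:20332710-20332859, minus strand: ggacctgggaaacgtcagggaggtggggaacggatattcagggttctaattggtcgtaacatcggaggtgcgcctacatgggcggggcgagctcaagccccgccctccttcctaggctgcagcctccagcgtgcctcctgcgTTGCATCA
Slc7a1, chr5:148399901-148400050, minus strand: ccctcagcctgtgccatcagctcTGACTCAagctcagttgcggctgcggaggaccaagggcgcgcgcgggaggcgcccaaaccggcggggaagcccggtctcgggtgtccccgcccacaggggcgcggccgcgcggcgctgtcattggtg
Slc38a7, chr8:95853488-95853637, minus strand: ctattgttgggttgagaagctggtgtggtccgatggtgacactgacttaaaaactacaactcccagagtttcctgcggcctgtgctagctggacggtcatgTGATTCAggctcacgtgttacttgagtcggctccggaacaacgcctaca
Both motifs were searched on both strands in windows of 300 bases, 250 before and 50 after each start, and 38 of the 55 members had at least 1 window. The C/EBP-ATF core, bound by ATF4 with C/EBP proteins in the amino acid response, was in 3.97% of all 32851 windows and in 4.51% of genes. It was found in 2 of the 38 members, Slc1a4 and Slc7a7. The AP-1 site, bound by Jun and Fos proteins, was in 7.81% of windows and in 8.97% of genes. It was found in 7 members, which are Slc6a5, Slc6a12, Slc6a14, Slc6a17, Slc7a1, Slc38a7 and Slc38a10. From 72 to 96 h in DMSO, Slc1a4 rose and Slc7a7 fell. Of the AP-1 holders with a mean of at least 50 over all 20 libraries, Slc7a1, Slc38a7 and Slc6a12 rose and Slc38a10 fell. Whether either motif goes with a direction was not tested. The letters say nothing of binding.

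To compare levels between genes, normalized reads were divided by the length of each gene's longest coding transcript (GENCODE M21, which is not the annotation the authors counted on). In DMSO at 24 h the taurine carrier Slc6a6 came first with 7060.2 normalized reads per kb, mean of 2 libraries. The glutamine carrier Slc38a2 (SNAT2) followed with 3986.4 and Slc7a6 (y+LAT2), a light chain that exchanges cationic for neutral amino acids, with 2356.7. Slc38a10 had 1195.2, ASCT2 (Slc1a5) 727.4, the creatine carrier Slc6a8 721.7 and the arginine carrier CAT1 (Slc7a1) 675.2. At the other end of the 22 members with a mean of at least 50 over all 20 libraries, called abundant here, the glutamate carrier Slc1a1 (EAAT3) had 0.566 and the betaine carrier Slc6a12 (BGT1) 0.265. That mean includes the late libraries, and both genes were under 50 normalized reads in each library before 72 h. By 96 h CAT1 stood at 2064.1, ASCT1 (Slc1a4) at 1681.0, the glycine carrier Slc6a9 (GlyT1) at 1567.6, ASCT2 at 1309.4 and the creatine carrier at 1093.1. All of these had moved ahead of Slc38a10, which had 902.8.

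Many abundant transporters changed between 72 and 96 h, some upward and some downward, and the Slc6, Slc7 and Slc38 families each held members that moved either way. ASCT1, ASCT2, EAAT3, GlyT1, CAT1, CAT3 (Slc7a3), the lysosomal glutamine carrier Slc38a7 (SNAT7), SNAT2 and BGT1 rose in DMSO. The taurine carrier, both y+LAT light chains (Slc7a6 and Slc7a7), Slc36a4 (PAT4), Slc43a2 (LAT4), Slc38a6 and Slc38a10 fell. In all, 9 of the 22 abundant members were higher and 7 lower at 96 h than at 72 h in DMSO (limma, Benjamini-Hochberg adjusted p under 0.05). Of all genes with such a mean, 18% were higher and 24.6% lower, and of all tested genes 15.8% were higher and 20.8% lower. In JNKi, 7 of the same 9 were also called higher and the same 7 were called lower. Of all abundant genes, 13.6% were higher and 21% lower there. These members were picked by their DMSO calls, and the share among all genes so called was not computed. JNKi libraries are separate, but same-numbered DMSO and JNKi libraries deviated together at 72 and 96 h (r = 0.72 and 0.53). At those times 0.072% and 0.0072% of all tested genes differed between the arms (limma), so the arms were likely to agree. This comparison and the limit for abundant members were chosen after values were seen. Without JNKi 72 h replicate 1, calls among the 38 tested members in that arm dropped from 17 (29.1% of all tested genes were called) to 7, and without JNKi 96 h replicate 1 or 2 they dropped to 11 and 10.

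**Figure D1:**
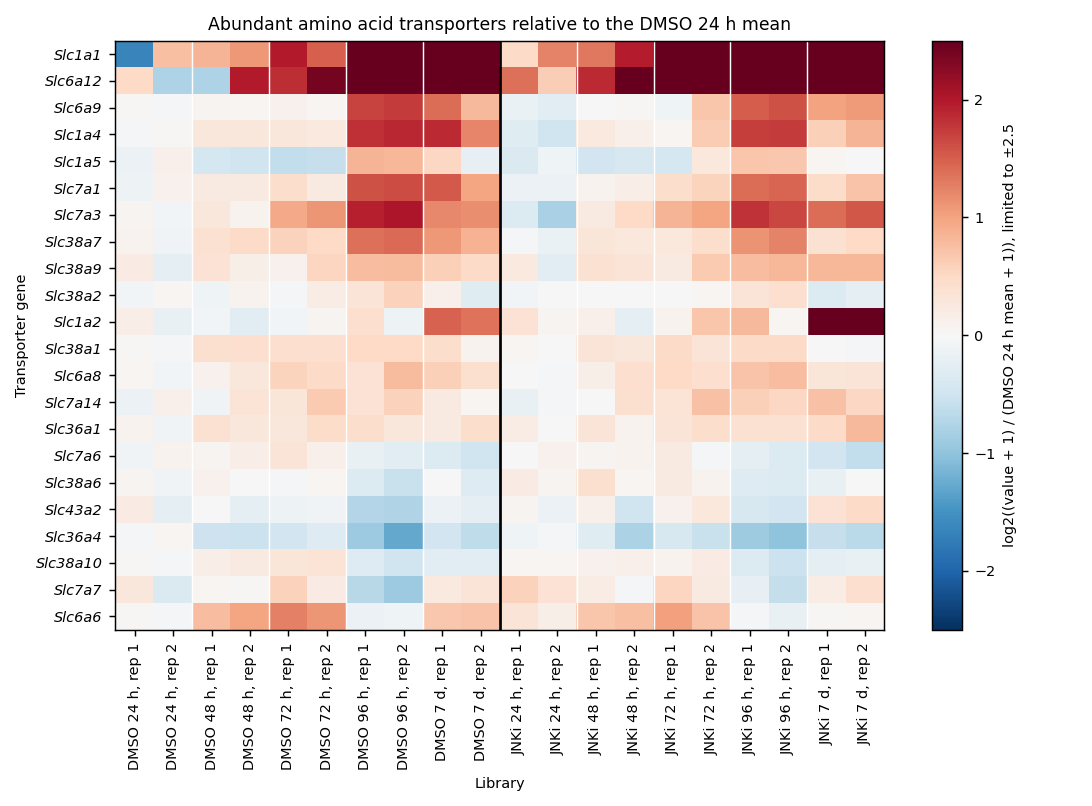
Level of the 22 abundant members in each of the 20 libraries, as log2 of the value plus 1 over the DMSO 24 h mean plus 1, limited to ±2.5 in the colours, with DMSO libraries left of the black line and JNKi libraries right of it. Genes are ordered by their difference between 96 h and 72 h in DMSO. In both arms the upper rows are mostly redder at 96 h than at 72 h, and the lower rows bluer or paler. Colours are relative to 24 h, so Slc6a6, at -0.13 in DMSO at 96 h, is near white there.

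Among the Slc1 carriers, ASCT1 exchanges alanine, serine and cysteine. Slc1a4 normalized reads in DMSO were 1783.5 and 1855.3 at 24 h, then 2224.1 and 2211.1 (48 h), 2200.3 and 2168.3 (72 h), 6460.2 and 6739.3 (96 h) and lastly 6634.9 and 4260.1 at 7 d. The 72 h and 96 h libraries did not overlap, and the log2 change was 1.59 ± 0.17 (SE), adjusted p = 5.01e-06 (limma). In JNKi its values were 1480.9 and 1286.1 at 24 h, then 2154.6 and 1980.9 (48 h), 1871.6 and 2810.9 (72 h), 6013.1 and 6119.0 (96 h) and lastly 2739.5 and 3259.5 at 7 d, with a change of 1.40 ± 0.17 (SE), adjusted p = 3.96e-05 (limma) between 72 and 96 h. ASCT2, the main glutamine exchanger of many dividing cells, gave Slc1a5 values of 1822.9 and 2198.4 at 24 h, then 1484.3 and 1419.0 (48 h), 1307.5 and 1356.7 (72 h), 3642.8 and 3595.3 (96 h) and lastly 2878.2 and 1738.4 at 7 d in DMSO. Both 72 h libraries lay below both 24 h libraries before the gene rose at 96 h, with a log2 change of 1.44 ± 0.20 (SE), adjusted p = 3.96e-05 (limma). The neuronal and epithelial glutamate and cysteine carrier EAAT3 was close to silent at first. Its Slc1a1 values in DMSO were 0.0 and 4.3 at 24 h, then 4.7 and 5.7 (48 h), 11.4 and 7.9 (72 h), 185.5 and 217.2 (96 h) and lastly 462.9 and 243.3 at 7 d. In JNKi they were 3.4 and 6.4 at 24 h, then 6.9 and 11.2 (48 h), 26.9 and 77.2 (72 h), 257.0 and 279.7 (96 h) and lastly 257.9 and 366.1 at 7 d. From 72 to 96 h the log2 change on the value plus 1 scale was 4.26 ± 0.60 (SE), adjusted p = 4.86e-05 in DMSO and 2.53 ± 0.60 (SE), adjusted p = 0.00477 in JNKi (limma). The call in JNKi, and that of ASCT2 there (0.77, adjusted p = 0.00777, limma), were lost without JNKi 72 h replicate 1.

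The arginine and lysine carriers CAT1 and CAT3 rose at 96 h. CAT1 is found in most cell types, and Slc7a1 in DMSO was 4442.7 and 5251.7 at 24 h, then 5665.3 and 5666.0 (48 h), 6554.1 and 5696.0 (72 h), 14640.3 and 14995.6 (96 h) and lastly 14039.1 and 9551.0 at 7 d. Its 96 h libraries stood above those of 24 to 72 h, with a log2 change from 72 h of 1.28 ± 0.14 (SE), adjusted p = 4.4e-06 (limma). CAT3 had lower counts: Slc7a3 was at 45.0 and 40.4 at 24 h, then 52.5 and 45.6 (48 h), 83.3 and 93.2 (72 h), 166.7 and 177.3 (96 h) and lastly 99.3 and 96.7 at 7 d. Its change from 72 to 96 h was 0.96 ± 0.20 (SE), adjusted p = 0.00141 (limma), and its 7 d libraries had returned to near the 72 h values. CAT2 (Slc7a2) never passed 22.2 normalized reads, and its DMSO values were 0.0 and 0.0 at 24 h, then 3.5 and 0.0 (48 h), 2.5 and 1.8 (72 h), 5.4 and 3.5 (96 h) and lastly 8.4 and 6.8 at 7 d.

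GlyT1 takes up glycine, which cells use for glutathione and one-carbon metabolism. Slc6a9 in DMSO was flat to 72 h and then stepped up, with 1690.8 and 1620.3 at 24 h, then 1735.2 and 1716.8 (48 h), 1784.8 and 1701.4 (72 h), 5361.5 and 5545.9 (96 h) and lastly 4374.5 and 2886.7 at 7 d. The log2 change from 72 to 96 h was 1.65 ± 0.19 (SE), adjusted p = 6.94e-06 (limma). The lysosomal glutamine and asparagine exporter SNAT7 climbed earlier as well: Slc38a7 was 931.8 and 826.0 at 24 h, then 1147.1 and 1219.5 (48 h), 1316.4 and 1239.8 (72 h), 2283.7 and 2349.6 (96 h) and lastly 1864.9 and 1610.0 at 7 d. Its change was 0.86 ± 0.10 (SE), adjusted p = 6.82e-06 from 72 h and 1.40 ± 0.10 (SE), adjusted p = 5.01e-09 from 24 h (limma). SNAT2, whose gene is known to respond to amino acid supply, moved little: Slc38a2 was 17824.2 and 19328.7 at 24 h, then 17295.9 and 19753.4 (48 h), 18187.4 and 21099.2 (72 h), 23129.8 and 27573.3 (96 h) and lastly 20280.1 and 15031.1 at 7 d. Its change from 72 to 96 h was 0.37 ± 0.12 (SE), adjusted p = 0.0295 (limma), and that call was lost without DMSO 72 h replicate 1 or DMSO 96 h replicate 2. BGT1, known for its response to hypertonic medium, rose from near 0: Slc6a12 in DMSO was 1.4 and 0.0 at 24 h, then 0.0 and 5.7 (48 h), 5.1 and 7.9 (72 h), 22.8 and 39.0 (96 h) and lastly 146.4 and 80.4 at 7 d. It kept rising in JNKi, with 3.4 and 1.6 at 24 h, then 5.2 and 12.4 (48 h), 13.8 and 30.6 (72 h), 67.6 and 62.6 (96 h) and lastly 244.0 and 368.1 at 7 d.

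**Figure D2:**
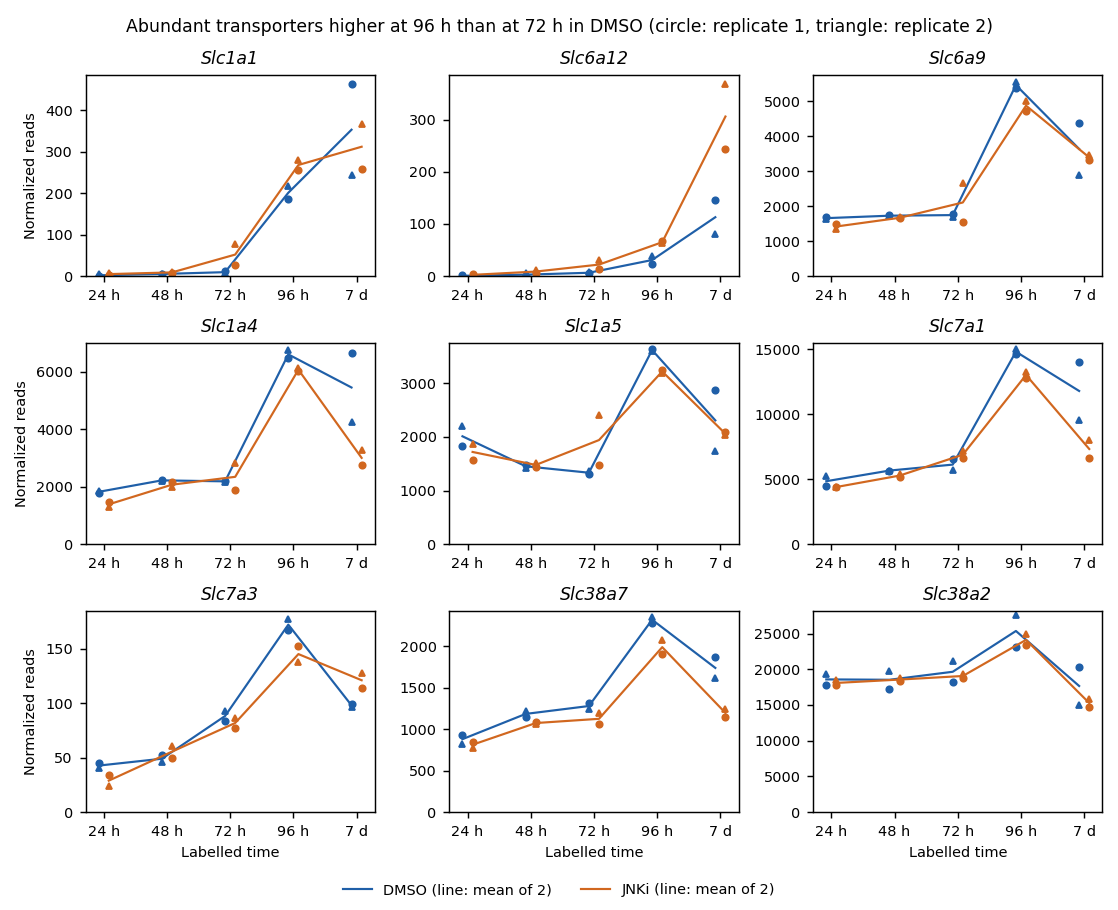
Normalized reads (vertical axes, from 0) of the 9 abundant members that were higher at 96 h than at 72 h in DMSO, at each labelled time, with lines through the means of 2 libraries, circles for replicate 1 and triangles for replicate 2, in blue for DMSO and orange for JNKi. In each of the 9 panels both arms rise from 72 to 96 h, ASCT1 (Slc1a4) from 2200.3 and 2168.3 to 6460.2 and 6739.3 in DMSO. The rises of Slc38a2 and Slc6a12 in JNKi were not called. In the 7 d columns the DMSO circle lies above the triangle in each of the 9 panels.

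The falling group was led by the taurine carrier, also the most abundant member. Slc6a6 in DMSO was 44803.5 and 42545.3 at 24 h, then 74216.5 and 86486.1 (48 h), 104800.7 and 94122.5 (72 h), 39266.5 and 40316.0 (96 h) and lastly 70117.8 and 71877.6 at 7 d. It went up to 72 h, came back to just under its 24 h values at 96 h and was higher again at 7 d, and no 2 of the 72 h, 96 h and 7 d groups overlapped. The log2 change was -1.32 ± 0.12 (SE), adjusted p = 1.17e-06 from 72 to 96 h and 0.84 ± 0.12 (SE), adjusted p = 9.41e-05 from 96 h to 7 d (limma). In JNKi the same gene was 54478.5 and 48484.2 at 24 h, then 70378.7 and 73402.9 (48 h), 89490.3 and 71545.9 (72 h), 42981.7 and 38253.1 (96 h) and lastly 44790.8 and 45034.7 at 7 d, so the first fall was seen (-0.98 ± 0.12 (SE), adjusted p = 3.96e-05, limma) while the difference between 96 h and 7 d was 0.15, 95% interval -0.11 to 0.40.

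Both y+LAT light chains, which export arginine in exchange for neutral amino acids, fell. Slc7a7 (y+LAT1) in DMSO was 827.8 and 530.5 at 24 h, then 700.1 and 692.4 (48 h), 1010.2 and 787.8 (72 h), 419.8 and 362.6 (96 h) and lastly 801.2 and 845.5 at 7 d. It changed by -1.19 ± 0.19 (SE), adjusted p = 0.000141 from 72 to 96 h and by 1.07 ± 0.19 (SE), adjusted p = 0.000446 from 96 h to 7 d (limma). Slc7a6 (y+LAT2) was 8319.0 and 9355.9 at 24 h, then 9279.3 and 9910.2 (48 h), 11068.2 and 9712.5 (72 h), 7814.6 and 7343.1 (96 h) and lastly 6941.3 and 6223.6 at 7 d, with a change of -0.45 ± 0.10 (SE), adjusted p = 0.00216 from 72 to 96 h (limma). At 7 d it was still below its 24 h level, at -0.42 from 24 h (adjusted p = 0.00179, limma), while Slc7a7 was at 0.31 (adjusted p = 0.162). PAT4 gave Slc36a4 values of 358.4 and 383.5 at 24 h, then 260.2 and 256.4 (48 h), 267.7 and 296.3 (72 h), 197.5 and 152.5 (96 h) and lastly 264.3 and 239.9 at 7 d. Its 96 h libraries were the lowest of the DMSO arm, with a log2 change of -1.09 ± 0.16 (SE), adjusted p = 1.81e-05 from 24 h (limma). LAT4 (Slc43a2), a carrier of branched-chain amino acids, was at 299.3 and 308.6 at 72 h, then 196.2 and 194.2 (96 h) and lastly 296.2 and 280.5 at 7 d. From 72 to 96 h Slc38a10 changed by -0.73 (adjusted p = 4.4e-06) and Slc38a6 by -0.46 (adjusted p = 0.0178, both limma). The 96 h calls of Slc36a4, Slc38a6 and Slc43a2 were lost without DMSO 96 h replicate 2, those of Slc38a6 and Slc43a2 without DMSO 72 h replicate 2, and that of Slc38a6 also without DMSO 72 h replicate 1.

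**Figure D3:**
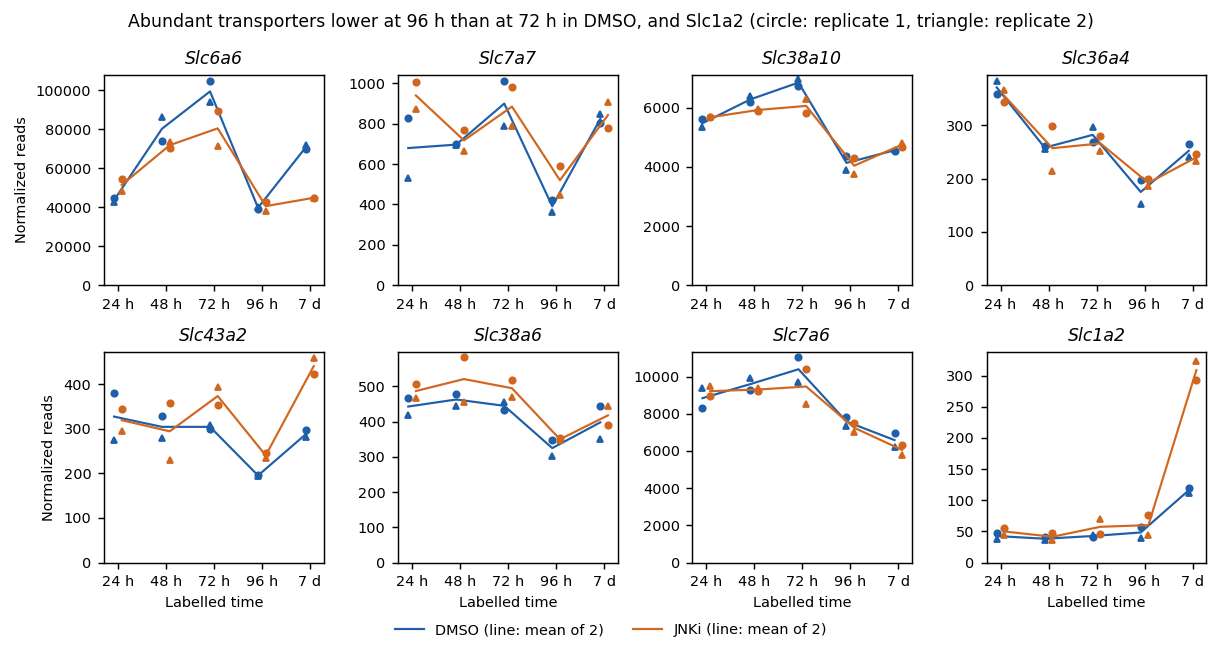
Normalized reads (vertical axes, from 0) of the 7 abundant members that were lower at 96 h than at 72 h in DMSO, and of Slc1a2, at each labelled time, with lines through the means of 2 libraries, circles for replicate 1, triangles for replicate 2, blue for DMSO and orange for JNKi. The Slc6a6 panel shows the DMSO values of 70117.8 and 71877.6 at 7 d above the JNKi values of 44790.8 and 45034.7, and the Slc1a2 panel shows JNKi above DMSO at 7 d.

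The other 6 abundant members did not pass the test between 72 and 96 h. In DMSO the changes were -0.01 for the proton-coupled carrier PAT1 (Slc36a1), 0.08 for SNAT1 (Slc38a1), 0.47 for the lysosomal arginine sensor SNAT9 (Slc38a9) and 0.06 for the creatine carrier. They were -0.01 for Slc7a14 and 0.15 for the glutamate carrier GLT-1 (Slc1a2). Against 24 h, SNAT9 was higher at 96 h, at 399.7 and 404.3 against 268.4 and 197.5 (0.80 ± 0.19 (SE), adjusted p = 0.0015, limma). SNAT1 (0.50, adjusted p = 0.000156), the creatine carrier (0.58, adjusted p = 0.000457) and PAT1 (0.36, adjusted p = 0.0221) were higher too (limma). PAT1 missed the threshold when DMSO 24 h replicate 2 was left out (0.28, adjusted p = 0.149) and again for DMSO 96 h replicate 1 (0.28, adjusted p = 0.143). Over the whole first 4 days, 18 of the 38 tested members were higher at 96 h than at 24 h in DMSO and 5 lower, against 32.7% and 30.5% of all 13896 tested genes. Among the 22 abundant members 13 were higher and 5 lower, against 33.1% and 35.7% of abundant genes.

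From 96 h to 7 d in DMSO, some of the members that had risen at 96 h were called lower, while ASCT1, CAT1, EAAT3 and BGT1 were not. ASCT2 (-0.69 ± 0.20 (SE), adjusted p = 0.012), GlyT1 (-0.62 ± 0.19 (SE), adjusted p = 0.0158), CAT3 (-0.80 ± 0.20 (SE), adjusted p = 0.00535), SNAT7 (-0.42 ± 0.10 (SE), adjusted p = 0.00325) and SNAT2 (-0.53 ± 0.12 (SE), adjusted p = 0.00368) fell (limma). Slc6a6, Slc7a7, Slc36a4 and Slc43a2, all of the falling group, rose again, as did GLT-1 (1.27 ± 0.28 (SE), adjusted p = 0.00263, limma). In all, 10 of the 38 tested members were higher at 7 d than at 96 h and 5 lower, against 21% and 15.5% of all tested genes, but 5 of the 10 had reached the mean of 10 only through a 7 d group. Without DMSO 7 d replicate 2, 8 members were called in place of 15 (36.5% of all tested genes were called), and ASCT2, SNAT2, SNAT7, GlyT1 and LAT4 were among those lost. These comparisons share the 96 h libraries with the step before, so a high value at 96 h enters both.

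In JNKi, several risers also fell between 96 h and 7 d, and GLT-1 rose; whether these changes differed from those in DMSO was not tested. ASCT1 went from 6013.1 and 6119.0 at 96 h to 2739.5 and 3259.5 at 7 d (-1.02 ± 0.17 (SE), adjusted p = 0.000291, limma), and CAT1 from 12804.2 and 13248.4 to 6662.9 and 7990.8 (-0.84 ± 0.14 (SE), adjusted p = 0.000213, limma). SNAT7 (-0.73 ± 0.10 (SE), adjusted p = 3.51e-05), SNAT2 (-0.66 ± 0.12 (SE), adjusted p = 0.000704) and SNAT1 (-0.49 ± 0.09 (SE), adjusted p = 0.000578) fell as well (limma). GLT-1, which clears glutamate in brain, rose from 75.8 and 44.4 to 293.9 and 324.1 (2.39 ± 0.28 (SE), adjusted p = 1.38e-05, limma), and LAT4 rose by 0.87 (adjusted p = 0.00152, limma). The 96 h and 7 d libraries of these 7 genes did not overlap, and their calls were kept with each library left out in turn and under the 9 other settings. In all, 5 of the 22 abundant members were higher and 9 lower, against 20.1% and 20.7% of abundant genes. Of the 38 tested members 14 were higher and 9 lower, against 23.2% and 16.6% of all tested genes (39.7% in either direction), and 8 of the 14 had passed the filter only through a 7 d group. Without JNKi 96 h replicate 2 the number called was 13 in place of 23, and without JNKi 7 d replicate 2 it was 14. The calls of ASCT2, GlyT1, Slc7a6 and BGT1 were lost in both cases. Against 24 h, 26 members were higher and 4 lower at 7 d in JNKi, against 31.7% and 26.3% of all tested genes, and 11 of the 26 had passed only through a 7 d group.

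At 7 d against 24 h in DMSO, 13 of the 22 abundant members were higher and 3 lower, against 27% and 33.9% of abundant genes. The limit of 50 counts the 7 d libraries, so it favours members that were high there. Slc6a12, with a mean of 55.9 over all libraries, had group means of 113 and 306 at 7 d and at most 65.1 before. Slc1a2, with a mean of 80.5, had 116 and 309 at 7 d and at most 60.1 before. Both were among the 13. Of all 38 tested members 25 were higher and 4 lower, against 32% and 28% of all tested genes. However, 11 of the 38 had passed the filter only through a 7 d group, and they gave 10 of the 25 higher calls. Of all 13896 tested genes, 928 had passed that way, so the 32% is not a like share. The largest log2 changes among members with a group mean of at least 50 were in Slc1a1 (7.19) and Slc6a12 (6.14). Both started at 0 to 4.3 normalized reads, so these sizes depend on the pseudocount, and with other settings they ran from 5.12 to 7.76 and from 3.75 to 7.29. ASCT1 (1.55 ± 0.17 (SE), adjusted p = 1.62e-06), GLT-1 (1.43 ± 0.28 (SE), adjusted p = 0.000416), CAT1 (1.26 ± 0.14 (SE), adjusted p = 1.1e-06), CAT3 (1.18 ± 0.20 (SE), adjusted p = 0.000104), GlyT1 (1.10 ± 0.19 (SE), adjusted p = 9.47e-05) and SNAT7 (0.98 ± 0.10 (SE), adjusted p = 3.98e-07) followed (limma). Slc6a19 (B0AT1), the neutral amino acid carrier of kidney and gut, fell from 57.6 and 46.1 to 28.6 and 20.3 (-1.07 ± 0.28 (SE), adjusted p = 0.00411, limma), a call lost without DMSO 7 d replicate 2 (-0.83, adjusted p = 0.050015). The abundant members called lower were Slc7a6, Slc36a4 (-0.56 ± 0.16 (SE), adjusted p = 0.00691) and Slc38a10 (-0.26 ± 0.08 (SE), adjusted p = 0.00807, limma). The call of Slc38a10 did not hold without DMSO 24 h replicate 1 (-0.23).

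ASCT2 and SNAT2 did not pass the test, with log2 changes of 0.16 (95% interval -0.26 to 0.58) and -0.09 (95% interval -0.35 to 0.18) from 24 h to 7 d in DMSO. With each library left out in turn ASCT2 ran from -0.20 to 0.52, and without DMSO 7 d replicate 2 it was called higher (0.52, adjusted p = 0.0319, limma). The taurine carrier was higher at 7 d than at 24 h (0.70 ± 0.12 (SE), adjusted p = 0.00012, limma). SNAT9 (0.55, adjusted p = 0.0192), PAT1 (0.34, adjusted p = 0.0304) and SNAT1 (0.26, adjusted p = 0.0204) were called higher (limma). Without DMSO 24 h replicate 2 these 3 calls were lost, at 0.33 (adjusted p = 0.222), 0.26 (adjusted p = 0.187) and 0.24 (adjusted p = 0.0973). SNAT9 and SNAT1 were also lost without DMSO 7 d replicate 1 (0.50 and 0.08), and PAT1 without DMSO 7 d replicate 2 (0.24). LAT4 stood at -0.16 (95% interval -0.55 to 0.22).

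The 9 risers also moved together within single groups. In DMSO at 7 d, replicate 1 was above replicate 2 for each of the 9, with a median ratio of 1.52, while the median over abundant genes was 1. ASCT1 was 6634.9 and 4260.1 there, and CAT1 14039.1 and 9551.0. In JNKi at 72 h, replicate 2 was above replicate 1 for each of the 9, with a median ratio of 1.5, while the median over abundant genes was 0.985. ASCT1 was 1871.6 and 2810.9 there and GlyT1 1542.5 and 2663.7. In the other 8 groups the median ratio of replicate 2 to replicate 1 lay between 0.919 and 1.12.

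At 24, 48, 72 and 96 h no member differed between JNKi and DMSO (limma), against 0%, 0%, 0.072% and 0.0072% of all tested genes called. At an unadjusted p under 0.05 there were 5, 2, 6 and 2 members at the 4 times. edgeR on recovered reads called none at any of them, and DESeq2 called 1, Slc1a1 at 72 h. There Slc1a1 was 26.9 and 77.2 in JNKi and 11.4 and 7.9 in DMSO, and the limma log2 difference was 2.15 ± 0.60 (SE), adjusted p = 0.261. The 95% intervals at 96 h were -0.49 to 0.24 for ASCT1, -0.47 to 0.10 for CAT1, -0.56 to 0.23 for GlyT1 and -0.23 to 0.28 for the taurine carrier.

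At 7 d JNKi libraries differed from DMSO in 6 of the 38 tested members, 2 higher and 4 lower, against 4.84% and 5.33% of all tested genes. Over all genes called, 47.6% were higher, a share that was 37.2% after TMM rescaling. ASCT1, CAT1, the taurine carrier and SNAT7 were lower in JNKi, and GLT-1 and LAT4 were higher. Slc6a6 was 44790.8 and 45034.7 in JNKi against 70117.8 and 71877.6 in DMSO, without overlap, a log2 difference of -0.66 ± 0.12 (SE), adjusted p = 0.00289 (limma). Slc38a7 was 1150.7 and 1238.8 against 1864.9 and 1610.0, also without overlap (-0.54 ± 0.10 (SE), adjusted p = 0.00256, limma). Slc1a2 was 293.9 and 324.1 against 119.5 and 111.5, with both JNKi libraries far above both DMSO libraries (1.41 ± 0.28 (SE), adjusted p = 0.00531, limma). These 3 calls held with each of the 20 libraries left out in turn and under the 10 other settings.

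The other 3 differences at 7 d rested on fewer libraries. Slc1a4 was 2739.5 and 3259.5 in JNKi against 6634.9 and 4260.1 in DMSO (-0.83 ± 0.17 (SE), adjusted p = 0.00681, limma). Without DMSO 7 d replicate 1 the difference was -0.51 (adjusted p = 0.121), and without JNKi 7 d replicate 1 it was -0.71 (adjusted p = 0.0922). Slc7a1 was 6662.9 and 7990.8 against 14039.1 and 9551.0 (-0.67 ± 0.14 (SE), adjusted p = 0.006, limma), with -0.39 (adjusted p = 0.0995) and -0.54 (adjusted p = 0.0958) without the same libraries. The groups did not overlap for either gene. Slc43a2 was 421.5 and 459.1 against 296.2 and 280.5 (0.61 ± 0.18 (SE), adjusted p = 0.0437, limma), and it passed in 10 of the 20 fits that leave out 1 library, with values from 0.55 to 0.67. It missed without either replicate of DMSO 72 h, DMSO 96 h, DMSO 7 d, JNKi 96 h or JNKi 7 d, with adjusted p of 0.0516 to 0.198. The call was also lost under TMM rescaling (0.58, adjusted p = 0.0559) and without the trend (adjusted p = 0.0663, both limma). Of the 6 risers that did not pass, BGT1 had the largest difference. Slc6a12 was 244.0 and 368.1 in JNKi against 146.4 and 80.4 in DMSO, without overlap (1.46 ± 0.70 (SE), adjusted p = 0.196, limma; 95% interval -0.03 to 2.94), and it was called with edgeR, DESeq2, a pseudocount of 8 and the replicate block within each time. For the others the 95% intervals of the difference were -0.46 to 0.32 for GlyT1, -0.54 to 0.30 for ASCT2, -0.46 to 0.07 for SNAT2, -0.13 to 0.72 for CAT3 and -1.39 to 1.14 for EAAT3. SNAT2 passed without DMSO 7 d replicate 2 (-0.41, adjusted p = 0.0446, limma). SNAT1, which is no riser, was at -0.28 (adjusted p = 0.0589, limma) and passed under 6 of the 10 other settings, edgeR and DESeq2 among them, and without DMSO 7 d replicate 2 (-0.46, adjusted p = 0.0027). edgeR and DESeq2 each called 8 members at 7 d.

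**Figure D4:**
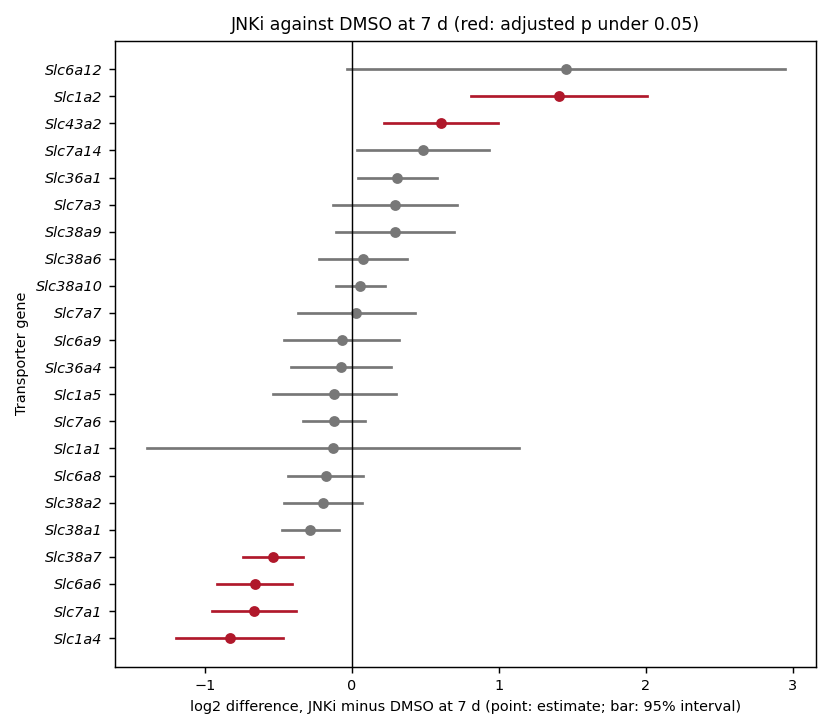
Difference between JNKi and DMSO at 7 d for the 22 abundant members, as a log2 value on the horizontal axis, with the estimate as a point and its 95% interval as a bar, 2 libraries per group, in red where the adjusted p was under 0.05. ASCT1 (Slc1a4), CAT1 (Slc7a1), Slc6a6 and Slc38a7 lie left of 0, and Slc1a2 and Slc43a2 right of it.

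Averaged over the 5 times, 4 members differed between the arms, 3 higher and 1 lower in JNKi, against 2.45% and 2.32% of all tested genes. BGT1 was higher by 1.41 ± 0.31 (SE), adjusted p = 0.0169, B0AT1 by 0.58 ± 0.13 (SE), adjusted p = 0.0154 and GLT-1 by 0.48 ± 0.13 (SE), adjusted p = 0.0369 (limma). SNAT7 was lower (-0.24 ± 0.04 (SE), adjusted p = 0.00501, limma). Slc6a19 in JNKi was 55.1 and 65.5 at 24 h, then 29.4 and 32.4 (48 h), 26.1 and 29.8 (72 h), 68.8 and 50.7 (96 h) and lastly 41.6 and 31.5 at 7 d, and in DMSO 57.6 and 46.1 at 24 h, then 17.5 and 19.9 (48 h), 18.3 and 12.3 (72 h), 44.2 and 35.5 (96 h) and lastly 28.6 and 20.3 at 7 d. GLT-1 differed little before 7 d, and its mean call was kept in 6 of 20 fits with 1 library left out (0.41 to 0.56). It missed, with an adjusted p of up to 0.0894, without any 1 of the 7 d libraries, either DMSO replicate at 48 or 72 h, DMSO replicate 2 at 24 or 96 h, JNKi replicate 1 at 24, 48 or 96 h, or JNKi replicate 2 at 72 h. The BGT1 call was lost with edgeR on recovered reads (adjusted p = 0.0572). The neighbour of Slc6a12 on chromosome 6 among protein-coding RefSeq genes is Slc6a13 (GAT2), whose values were at or below 21.0 normalized reads in each library. B0AT1 likewise lies beside Slc6a18 (B0AT3) on chromosome 13, which was 38.8 and 40.6 in JNKi and 23.6 and 23.7 in DMSO at 7 d and did not pass.

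The difference between the JNKi effect at 7 d and its mean over 24 to 96 h was itself tested. It passed in 2 members, both in the lower direction, against 1.66% of all tested genes higher and 1.68% lower. The taurine carrier gave -0.61 ± 0.14 (SE), adjusted p = 0.0207 and CAT1 -0.60 ± 0.15 (SE), adjusted p = 0.0381 (limma). GLT-1 was at 1.16 ± 0.32 (SE), adjusted p = 0.0527, ASCT1 at -0.69 ± 0.19 (SE), adjusted p = 0.058 and SNAT7 at -0.37 ± 0.11 (SE), adjusted p = 0.066, which did not pass. GLT-1 passed under 6 of the 10 other settings, and without DMSO 96 h replicate 2, JNKi 72 h replicate 2 or JNKi 96 h replicate 1 (adjusted p = 0.0425, 0.0354 and 0.0365, limma).

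Of the members with few reads, 11 passed the filter only through a 7 d group. Their low earlier values and higher 7 d values are set by that choice and are given as a description. They were Slc1a3, Slc6a11, Slc6a13, Slc6a17, Slc7a2, Slc7a4, Slc7a10, Slc38a4, Slc38a8, Slc43a1 and Slc43a3. Among them are the glial glutamate and GABA carriers GLAST (Slc1a3) and Slc6a11, and the liver carriers SNAT4 (Slc38a4) and LAT3 (Slc43a1). Their summed values were 4.2 and 1.4 normalized reads in DMSO at 24 h, 16.8 and 25.6 (96 h) and lastly 90.7 and 104.8 at 7 d. In JNKi the sums were 3.3 and 9.6 at 24 h, then 22.2 and 22.3 (96 h) and lastly 163.8 and 172.9 at 7 d. All of the 11 but Slc1a3, Slc38a4 and Slc38a8 reached a mean of 10 in JNKi at 7 d alone. The choice therefore also favours higher JNKi sums at 7 d. Reads of 527 olfactory and vomeronasal receptor genes, chosen for a mean under 10 at 24 h, are given beside them, and their low start is likewise set by the choice. They made up 2.18 and 1.67 CPM in DMSO at 24 h and 9.49 and 7.74 at 7 d, and in JNKi 2.21 and 1.54 at 24 h and 18.54 and 16.37 at 7 d. The part of this in the low members was not tested. The filter acts on all genes alike: of the 928 that passed only through a 7 d group, 66.6% were called higher at 7 d than at 24 h in DMSO and 84.6% in JNKi.

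The other 5 members with few reads passed the filter at an earlier time. Slc1a7 (EAAT5), a glutamate carrier of the retina, was 1.4 and 1.4 at 24 h, then 4.7 and 1.4 (48 h), 2.5 and 1.8 (72 h), 20.1 and 15.1 (96 h) and lastly 16.8 and 8.8 at 7 d in DMSO. Its change from 72 to 96 h was 2.56 ± 0.51 (SE), adjusted p = 0.000942 (limma). It reached a mean of 10 only in the 96 h and 7 d groups, so the filter in part sets this rise. ASCT1, ASCT2 and EAAT3 also rose at 96 h, while GLT-1 was not called. B0AT1 had its highest DMSO values at 24 h. The brain proline carrier Slc6a7 stayed at or below 22.3 normalized reads, Slc6a18 at or below 40.6 and Slc7a15 at or below 36. The 17 members under the filter include the serotonin, dopamine and noradrenaline carriers Slc6a4, Slc6a3 and Slc6a2, with highest library values of 5.6, 2.8 and 8.3 normalized reads. Slc7a8 (LAT2) had the highest single value among them, at 11.1.

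**Figure D5:**
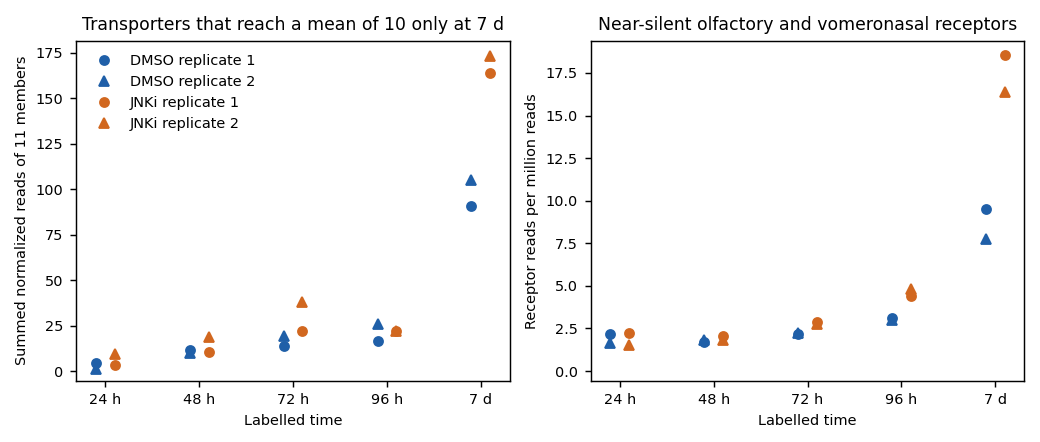
Left, summed normalized reads of the 11 members that reached a group mean of 10 only at 7 d, a choice that sets the rise at 7 d. Right, summed CPM of 527 receptor genes chosen for a mean under 10 at 24 h. Points are single libraries at each labelled time, blue for DMSO and orange for JNKi, and at 7 d the JNKi points lie above the DMSO points in both panels. On the left that gap is in part set by the choice, since most of the 11 reached the mean of 10 only in JNKi at 7 d.

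Of 25 tested other amino acid transport genes, 6 were higher and 3 lower at 96 h than at 72 h in DMSO, against 15.8% and 20.8% of all tested genes, with a median log2 change of 0.14, against -0.01 over all tested genes. Slc3a2, the heavy chain that carries the y+LAT, LAT1 and xCT light chains, had a mean of 22158 at 96 h against 11364 at 72 h (0.97 ± 0.13 (SE), adjusted p = 2.45e-05, limma). The light chains Slc7a5 (LAT1, 1.51, adjusted p = 9e-06) and Slc7a11 (xCT, 2.59, adjusted p = 1.2e-05) rose as well (limma), while the y+LAT light chains fell. Slc3a2, Slc7a5 and Slc7a11 were among the 6 called higher, and the 3 called lower are not named here. At 7 d Slc7a5 was lower in JNKi than in DMSO (-0.77 ± 0.17 (SE), adjusted p = 0.0112, limma) and Slc7a11 was at 0.13 (95% interval -0.52 to 0.79). In that comparison 1 of the 25 was higher and 3 lower, against 4.84% and 5.33% of all tested genes, with a median of -0.03 against 0.02 over all tested genes.

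Of 28 tested amino acid sensing genes, which act upstream of mTORC1 or on translation, 12 were higher and 5 lower at 96 h than at 72 h in DMSO, against 15.8% and 20.8% of all tested genes, with a median of 0.20. The leucine sensor Sesn2 (1.69 ± 0.19 (SE), adjusted p = 8.05e-06), the Rag GTPase regulator Flcn (0.87 ± 0.13 (SE), adjusted p = 6.43e-05) and the GTPase Rragc (0.69 ± 0.09 (SE), adjusted p = 1.63e-05) rose (limma). In JNKi the same 3 changed by 1.30, 0.66 and 0.68 (adjusted p = 0.000154, 0.00111 and 4.36e-05, limma). These 3 were among the 12 called higher in DMSO, and the 5 called lower are not named here. Between the arms at 7 d 1 of the 28 was higher and 1 lower, against 4.84% and 5.33%, with a median of -0.03.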

How the data were processed

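RNA from NMuMG cells was sequenced, and 20 of the series' 35 samples, the DMSO and JNKi libraries, were analysed. TopHat, HTSeq, DESeq and build mm9 are named, without versions or roles, in the submitters' processing notes. The sources used here do not give a strand setting for counting, which makes overlapping genes uncertain. The authors deposited a normalized read count for each gene in each library, a signal rounded to 1 decimal. Division by a step found for each library turned 100% of values into whole reads, within 0.1 of a read. Those reads gave the depth, 9492324 to 48584027 per library, and shallow libraries are less precise. A table of the other 15 samples, a TGF-β time course, was not used here because its values were split at the decimal point.

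Log2 of the value plus 1 was fitted in R 4.3.3 by limma 3.58.1, with a trend of variance on level and 1 mean for each of 10 groups. All tests were two-sided. Genes entered where any group mean reached 10, and Benjamini-Hochberg adjustment ran over these 13896 genes, with 0.05 as the threshold. A change on this scale understates the change of low genes. Alternatives were other pseudocounts and filters, TMM rescaling, no trend, replicate blocks, each library left out, and edgeR 4.0.16 and DESeq2 1.42.0 on the recovered reads. At 7 d edgeR called 1589 genes between the arms where limma called 1414. The limma test was also run on simulated counts, drawn independently for each library. That check does not cover libraries that deviate together. Members, gene lists, motifs and tests were chosen with earlier results of these data known. The comparisons of 96 h with 72 h and of JNKi at 7 d with 96 h, the limit of 50 for abundant members, and the members named for them were chosen after values were seen.

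Members were named by rule from those past the test with a group mean of at least 50: the 8 largest changes in each direction for DMSO at 7 d against 24 h, the 6 largest in each direction between the arms at 7 d, and the 3 largest in each direction for the mean over 5 times and for the difference of effects (where fewer than 3 passed, the 3 smallest p). Another 14 were always named.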

Additional observations from a re-analysis of the deposited data

Results flagged for a closer look

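The effect of JNKi at 7 d differed from its mean over 24 to 96 h in 2 members by a test of the difference itself (limma, Benjamini-Hochberg). For the taurine carrier Slc6a6 the difference was -0.61 (log2, adjusted p = 0.0207). It was between -0.65 and -0.57 with each library left out in turn, and it missed the threshold without DMSO 7 d replicate 1 (adjusted p = 0.0929) or without either JNKi 7 d library (adjusted p = 0.128 and 0.0920). For the arginine carrier Slc7a1 it was -0.60 (adjusted p = 0.0381). It passed in 9 of the 20 fits that leave out 1 library. Without DMSO 7 d replicate 1 it was -0.33 (adjusted p = 0.283), without JNKi 7 d replicate 1 it was -0.47 (adjusted p = 0.254), and without JNKi 7 d replicate 2 it was -0.73 (adjusted p = 0.0583). It also missed without either DMSO library at 48 h, DMSO 72 h replicate 2, DMSO 96 h replicate 1, JNKi 24 h replicate 1, JNKi 48 h replicate 2 or either JNKi library at 96 h, with adjusted p of 0.0504 to 0.0633.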

How the results depend on the processing

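No alternative reversed the direction of a called member, and 379 of 413 counts of members called stayed within 1.5 times the value given. With a group mean of at least 50, which leaves fewer members to test, 17 members were called for DMSO and 17 for JNKi at 7 d against 24 h, and 14 for JNKi at 7 d against 96 h. Between the arms at 7 d 12 were called with a pseudocount of 8 and 11 with the replicate block within each time. At 72 h 1 was called with that block and 1 with DESeq2, and over the mean of 5 times 10 and 8. The difference between the JNKi effect at 7 d and earlier gave 5 calls with a pseudocount of 8, 1 without the trend, 7 with that block, 4 with edgeR and 5 with DESeq2. GLT-1, at 1.16, passed there with all of these but the fit without the trend, and also with a group mean of at least 50 (adjusted p = 0.0459) and the replicate block (adjusted p = 0.0389, both limma). The cause was not tested.

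The labels do not say that replicate numbers pair libraries. Same-numbered DMSO and JNKi libraries deviated together from 24 to 96 h (r = 0.73, 0.59, 0.72 and 0.53 across 9605 genes, which are not independent) but not clearly at 7 d (0.07), so pairing was not taken as given over all times and the values with the replicate block within each time stand as an alternative. The replicate block over all libraries kept each count within 1.5 times.

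With 1 library left out, counts ranged from 18 to 23 and from 8 to 17 for DMSO at 96 h against 24 h and 7 d against 96 h, and from 23 to 29 and from 22 to 32 for DMSO and JNKi at 7 d against 24 h. They ranged from 3 to 8 between the arms at 7 d (3 without DMSO 7 d replicate 1 or JNKi 7 d replicate 1), from 3 to 6 for the mean and from 0 to 5 for the difference. The difference gave 0 without DMSO 7 d replicate 1 or either JNKi 7 d library, 5 without DMSO 7 d replicate 2, 4 without JNKi 72 h replicate 2, and 1 without DMSO 48 h replicate 1 or 2, DMSO 72 h replicate 2, DMSO 96 h replicate 1, JNKi 24 h replicate 1, JNKi 48 h replicate 2 or JNKi 96 h replicate 2. The range was 13 to 20 for DMSO and 7 to 19 for JNKi at 96 h against 72 h, and 13 to 24 for JNKi at 7 d against 96 h. Groups hold 2 libraries each, which limits what can be detected in members with few reads.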
